A study of Nannochloropsis oceanica strain IMET1 with 6 samples.

Results

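In the compact nuclear genome of the marine alga Nannochloropsis oceanica IMET1, neighbouring genes can run towards each other on opposite strands until their ends overlap. The genes described here are the adjacent pairs in which a gene on the plus strand is followed by a gene on the minus strand whose start lies at or before the end of the first. They were found from the chromosome, start, end and strand that the deposited table gives for each gene, and no measured value entered the rule. Adjacency was judged among the listed genes only, so an annotated gene absent from the table would go unseen. Whether genes without reads were left out of the table was not tested. The rule found 206 pairs among 9522 pairs of adjacent genes, or 412 of the 9552 genes in the table. Each of the 412 genes belonged to 1 pair only. In 195 pairs the genes overlapped at their ends, as their description says. In the other 11 pairs 1 gene lay wholly inside the span of the other, so that the overlap was not restricted to the ends.

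Messenger RNA had been sequenced from 3 libraries of HLM23, an insertional mutant in which the gene NO06G03670 is disrupted, and from 3 libraries of the wild type (WT). The labels give the genotypes as NO06G03670- and wild type and describe the mutant as a knockout. HLM23 is a single named strain, so an effect of the disrupted gene and an effect of any other change carried by that strain cannot be told apart. Both strains were grown alike, in 25 ml of artificial sea water from an optical density of 0.1 at 750 nm, at 25 °C with light of 600 μmol photons m-2 s-1, with 16 h of light and 8 h of dark and 0.2% CO2, and were harvested after 3 days, 1 h before dark. Nothing in the labels says that the replicates came from separate cultures, and the p-values then reflect only the spread among these libraries, which may be technical.

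The disrupted gene itself (chromosome 6, 1004518 to 1013731, minus strand), which is no member, held 1073, 982 and 777 normalised reads in HLM23, against 2164, 1664 and 1682 in the WT. Every HLM23 library was below every WT library, and none was near 0. Normalised reads are the deposited values, gene reads that the authors scaled to be comparable between libraries. The libraries held 15331673 to 18711316 gene reads each.

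Convergent genes end towards each other, so transcripts of genes that overlap at their ends can carry complementary stretches at their 3′ ends. That holds only where the shared bases are exon sequence in both genes, and exon positions within the overlaps are not given. Such overlaps are known in many eukaryotes with compact genomes, where the opposing transcripts can pair with each other, the polymerases can meet, and each gene needs its own cleavage and polyadenylation signals within the sequence of its partner. A short-read library keeps the 2 transcripts apart only where the strand of origin is recorded. The kit named in the labels, NEBNext Ultra RNA, is the version that does not mark strand, and no source used here gives the settings of the counting. Reads from an overlap therefore cannot be assigned to a partner with certainty, and their part in the values below was not tested. The files pair no gene ID with a name or description, and none of the IDs matched the 160 genes of the reference table, so no role is given for any gene. Most pairs are named by chromosome and position as the deposited table has them, and no source used here names the genome build.

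Most overlaps were short beside the genes. Their length ran from 1 to 10875 bases with a median of 367 and an interquartile range of 49.3 to 839 bases. There were 53 overlaps of 50 bases or fewer and 40 of more than 1000 bases. The median overlap took up 14.4% of the span of the shorter partner (interquartile range 2.70 to 38.5%), and 34 overlaps covered more than 50% of it. The 206 overlaps came to 138887 bases in all. They were spread over 29 of the 30 chromosomes, with 12 pairs on chromosome 2, 2 on chromosome 20 and 0 on chromosome 30.

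The edge of the rule fell at a sharp step in the annotation. Exactly adjoining genes, in which the minus-strand gene starts on the base after the plus-strand gene ends, made up 354 of the 2905 convergent pairs (12.2%). Only 3 pairs overlapped by 1 base and 21 by 1 to 10 bases, while 138 pairs stood 1 to 10 bases apart. Overlap was found in 7.09% of convergent pairs, in 15.9% of the 2907 divergent pairs (462 pairs, median overlap 469 bases) and in 0.162% of the 3710 same-strand pairs (6 pairs). Directly adjoining pairs numbered 91 among divergent and 280 among same-strand pairs. Whether a pair overlaps or adjoins thus rests on the gene models, whose making no source used here describes.

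**Figure D1:**
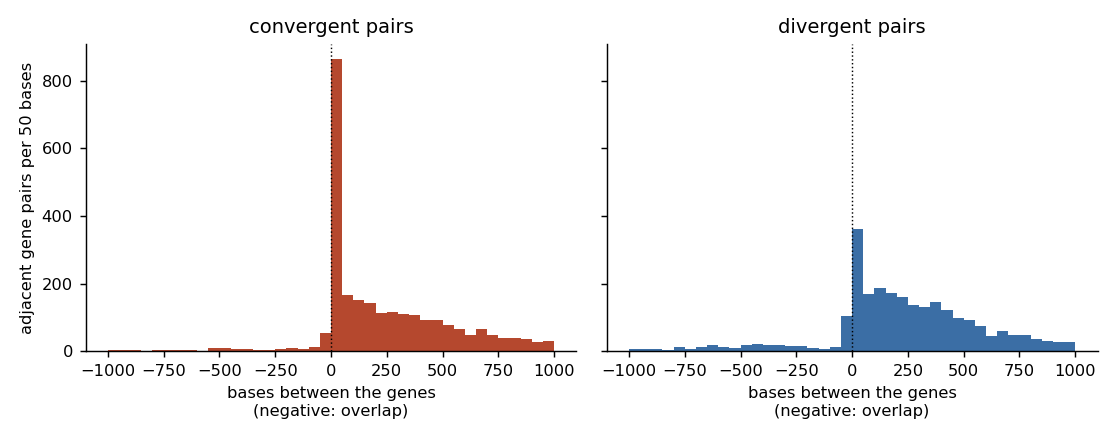
Distance between adjacent genes in bases (negative values are overlaps, 0 is directly adjoining) for convergent pairs (left) and divergent pairs (right), as pairs per 50 bases. The convergent pairs pile up just right of 0, where 865 of them lie 0 to 49 bases apart; 40 convergent and 122 divergent pairs with overlaps beyond 1000 bases, and 264 and 275 with gaps of at least 1000 bases, lie outside the plot.

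The longest overlap whose partners both had a mean of at least 10 normalised reads joined 2 genes on chromosome 4, at 1091349 to 1106993 (plus) and 1096119 to 1111024 (minus), over 10875 bases. The plus-strand gene held 484, 407 and 576 normalised reads in HLM23 replicates 1 to 3 and 367, 326 and 296 in the WT, and the minus-strand gene held 35.8, 38.0 and 61.0 against 28.2, 52.7 and 34.3. The strains did not overlap in the first gene and overlapped in the second, and neither passed the test (limma adjusted p = 0.054 and 0.67). The second longest, of 7079 bases on chromosome 3 (487795 to 494873), joined a plus-strand gene with mean normalised reads of 34.5 in HLM23, against 45.9 in the WT, to a minus-strand gene with 1461 ± 347 and 1122 ± 90.2 (SD, n = 3 each). The next, of 4392 bases on chromosome 16 (188840 to 193231), joined a plus-strand gene with 131 ± 41.7 in HLM23 and 215 ± 16.5 in the WT to a minus-strand gene with 2244 ± 123 and 1751 ± 77.2. The genes of these 2 pairs did not pass the test either. In all 3 pairs the WT level per kilobase of the stronger partner was between 5.44 and 9.42 times that of the weaker.

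The overlapping convergent genes were long, rarely without introns, and less abundant than the median gene. Their median gene length was 2606 bases, against 1908 over all genes, and their median span on the chromosome 3267 against 2299 bases. In 47 of the 412 (11.4%) the gene length equalled the span, which leaves no room for an intron, against 28.5% of all genes. Divergent genes with overlap had a similar build, with a median length of 2438 bases and 7.58% without introns. These are properties of the annotation and have no replicate error.

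Every one of the 412 genes was detected in at least 1 library, and 391 were detected in all 6. The first count may only reflect which genes the table lists, and neither count was set against all genes. Levels are given as normalised reads per kilobase of the deposited gene length. The median level of the 412 genes in the WT was 193 (interquartile range 68.0 to 460), against 286 (101 to 682) over all genes. Library by library, the median of the overlapping genes was 180, 186 and 157 in HLM23 replicates 1 to 3 and 199, 180 and 191 in the WT, and that of all genes was 276, 283 and 261 in HLM23 and 286, 281 and 282 in the WT. The overlapping genes thus lay below the median gene in each of the 6 libraries. The median was 278 over divergent genes with overlap and 316 over convergent genes without overlap, in the WT. No test over genes was made of these differences, because genes are not replicates.

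Levels were lower where the overlap was longer, apart from the class of 201 to 500 bases. In the WT the median was 485 normalised reads per kilobase where the overlap was 50 bases or fewer (106 genes), 176 at 51 to 200 bases (66 genes), 194 at 201 to 500 bases (74 genes), 159 at 501 to 1000 bases (86 genes) and 86.1 above 1000 bases (80 genes). The order of the shortest and the longest class was the same in each of the 6 libraries, with 437 to 487 in the former and 75.5 to 92.3 in the latter. The same trend appeared when each gene was placed by the share of its own span inside the overlap. The median level was 325 for genes with up to 5% of their span in the overlap (156 genes), 196 at 5 to 25% (141 genes), 106 at 25 to 50% (73 genes) and 48.0 above 50% (42 genes). Across the 412 genes, Spearman's rho between the WT level and the overlap share was -0.38, and with the overlap length it was -0.33. Partners share an overlap and a library, so these are descriptions.

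The median gene length was 2248, 2116, 2548, 2877 and 3398 bases in the 5 classes of overlap length, longest where the level was lowest, and in the 4 classes of share it was 2505, 2795, 2450 and 2487 bases. The part of gene length in these trends was not tested. Divergent genes with overlap also stood lower at larger shares, at 373, 332, 229 and 80.7 normalised reads per kilobase in the same 4 classes. How reads from an overlap were counted is not stated, and its part in this trend was not tested. For the 47 genes without introns the length outside the overlap is known. Their median WT level was 55.1 per kilobase of the whole gene, against 208 over all 2727 genes without introns. With the whole value divided by the length outside the overlap alone, the median was 80.2 (45 genes with bases left). That division places every read outside the overlap, which the values per gene cannot show.

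**Figure D2:**
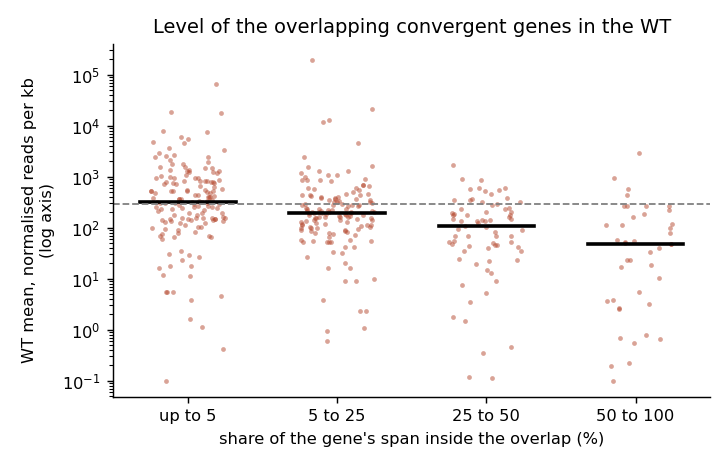
WT mean level of each of the 412 genes in normalised reads per kilobase (log axis), by the share of its span inside the overlap in percent. Black bars are class medians, which step down from 325 to 48.0, and the dashed line is the median of all genes, 286; 2 genes at 0 in the WT are drawn at 0.1.

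The 11 pairs with 1 gene inside the other ranged from near 0 to abundant. In 2 of them, on chromosome 2, a plus-strand and a minus-strand gene had exactly the same start and end. At 266308 to 269143 both were near the limit of detection, with 0 to 16.0 normalised reads on the plus strand and 0 to 4.03 on the minus strand over the 6 libraries. At 367602 to 370957 the minus-strand gene held 80.4, 77.0 and 88.0 in HLM23 and 81.7, 86.2 and 50.4 in the WT, and its mirror image on the plus strand was at 3.26, 0 and 4.00 in HLM23 and at 0 in all 3 WT libraries. A count of 0 allows up to 3 reads, which is 2.82 to 3.03 normalised reads in the WT libraries, and the strains did not differ past the threshold (limma adjusted p = 0.27).

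The other 9 such pairs had a minus-strand gene inside a longer plus-strand gene, and the inner gene had the lower level per kilobase in 6 of them. On chromosome 19 an inner gene at 669271 to 670422 held 1613, 1362 and 1434 normalised reads in HLM23, against 1381, 1636 and 1731 in the WT, while its host at 668201 to 675376 held 660, 671 and 714 against 484, 548 and 518. Neither of these 2 genes passed the test (limma adjusted p = 0.65 for the inner gene and 0.088 for the host). Per kilobase the inner gene stood at 2914 in the WT and the host at 142. On the same chromosome an inner gene at 30810 to 32589 held 7.80 to 29.0 normalised reads over the 6 libraries inside a host (23818 to 40543) with 2409 to 4195. Another inner gene there, at 156281 to 157242, did not pass the test, with 309 ± 10.4 (HLM23) against 392 ± 49.1 (WT) normalised reads (limma adjusted p = 0.20). Its host at 153214 to 159227 rose from 2391 ± 204 to 4024 ± 534 (SD, n = 3, log2 change of 0.75 ± 0.15 SE, limma adjusted p = 0.0044).

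Partners were seldom equally abundant. Among the 175 pairs with a mean of at least 10 normalised reads in both partners, the stronger exceeded the weaker by a median of 3.91-fold per kilobase in the WT (interquartile range 1.71 to 9.79). The difference was under 2-fold in 58 pairs (33.1%) and over 10-fold in 44 (25.1%). Over all 8613 adjacent pairs with such means the median was 3.39-fold, with 29.7% under 2-fold and 24.2% over 10-fold. The stronger partner was on the plus strand in 93 pairs and on the minus strand in 82. It was the same partner in all 6 libraries in 137 of the 175 pairs (78.3%), against 80.1% of all adjacent pairs. Spearman's rho between the WT levels of partners was 0.098 over the 175 pairs and 0.10 over all adjacent pairs, and it was 0.040 over convergent pairs without overlap and 0.22 over 441 divergent pairs with overlap.

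The most unequal pair contained the most abundant gene of the table. On chromosome 25 a minus-strand gene at 239102 to 243813 held 529050, 528030 and 773387 normalised reads in HLM23, against 641397, 610710 and 917255 in the WT, with overlapping ranges (limma adjusted p = 0.60). That was 3.54 ± 0.52% of all normalised reads for HLM23 against 4.55 ± 0.88% for the WT (SD, n = 3). Its plus-strand partner at 238235 to 239641, which shares 540 of its 1407 bases with it, held 128, 135.5 and 111 in HLM23 and 279, 209.8 and 299.5 in the WT. The partner fell in HLM23 (log2 change of -1.06 ± 0.23 SE, limma adjusted p = 0.0064), with no overlap between the strains. Per kilobase the minus-strand gene stood 1038 times above it in the WT. At the mean level of the minus-strand gene the 540 shared bases would carry 104660 normalised reads if all were exon sequence, and the whole value of the partner was 263 ± 47.0.

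This comparison was extended to the other pairs, taking the level of the stronger partner as even along its length and every shared base as exon sequence. The files do not give the positions of exons, and a shared stretch may be intron of the stronger gene, which makes the expected value too high. In 52 of the 175 pairs (29.7%) the whole WT value of the weaker partner was below what the level of the stronger would place on the overlap. The count was 43 of 70 pairs with overlaps of more than 500 bases (61.4%). The expected value is proportional to the overlap length, so a higher share at long overlaps follows in part from the calculation itself. No other kind of pair was set beside these, and how overlap reads were counted was not tested. The values per gene do not show how reads lie along a gene.

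The next most unequal pair, on chromosome 28, shared only 6 bases (12210 to 12215), with WT levels of 1196 ± 39.1 normalised reads per kilobase in the plus-strand and 5.41 ± 2.77 in the minus-strand gene (SD, n = 3). At the other extreme were pairs in near balance. On chromosome 26 (overlap of 22 bases, 270513 to 270534) the partners stood at 267 ± 10.2 and 272 ± 32.3 per kilobase in the WT. On chromosome 8 (overlap of 1029 bases, 292309 to 293337) they stood at 199 ± 7.78 and 199 ± 55.7.

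The pairs in which both partners were most abundant had short overlaps. On chromosome 11 (24 bases, 145965 to 145988) the plus-strand gene held 8915, 8421 and 6019 normalised reads in HLM23, against 7656, 7159 and 6875 in the WT, and the minus-strand gene 8871, 8861 and 7246 against 8700, 8680 and 8416. Both overlapped between the strains, with log2 fold changes of 0.09 ± 0.17 and -0.05 ± 0.15 (SE, limma adjusted p = 0.73 and 0.81). On chromosome 9 (21 bases, 588865 to 588885) the minus-strand gene held 1185, 1415 and 2560 in HLM23 and 1442, 1677 and 2064 in the WT and did not pass the test. The plus-strand gene held 4267, 4765 and 5383 in HLM23 and 6560, 6250 and 7251 in the WT, and it fell (log2 change of -0.48 ± 0.15 SE, limma adjusted p = 0.032). Its call was lost without HLM23 replicate 1 or 2 and without WT replicate 1 or 3 (limma adjusted p = 0.074 to 0.13).

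Between the strains, overlapping convergent genes changed about as often as other genes. Changes were tested with limma on log2(normalised reads + 1) over all genes with a mean of at least 1, and fold changes are on that scale, HLM23 over WT. Of the 412 genes, 406 passed this filter. At an adjusted p under 0.05, 113 of the 406 (27.8%) differed, against 28.9% of all 9452 tested genes. Higher in HLM23 were 54 (background 14.5%) and lower 59 (background 14.3%), with 59 calls among the 203 plus-strand and 54 among the 203 minus-strand genes. Called and at least 2-fold higher were 35 of the 406 and at least 2-fold lower 23, against 724 and 495 of all 9452 tested genes. Higher genes outnumbered lower ones in both sets. The median log2 fold change of the 406 was -0.085 (interquartile range -0.40 to 0.33), against -0.0022 over all tested genes.

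The number of calls depended on which library was left out. Without HLM23 replicate 2, HLM23 replicate 3 or WT replicate 2 the overlapping genes had 95, 102 and 109 calls. These were 23.4%, 25.1% and 26.85% of them, against 25.3%, 28.1% and 27.2% over all genes. Without HLM23 replicate 1, without WT replicate 1 and without WT replicate 3 the calls among the overlapping genes fell to 77, 65 and 59, or 19.0%, 16.0% and 14.5%, while those over all genes fell to 18.4%, 16.2% and 16.3%. With library totals made equal in place of the authors' scaling, the median of all tested genes moved to -0.11 and that of the overlapping genes to -0.19. The split of their calls then became 42 higher and 67 lower, and that over all genes went from 1374 higher and 1356 lower to 1025 and 1603. After removing a trend with gene length in each library, the median of the overlapping genes was -0.055 and that of all genes -0.0032. Without the replicate 2 libraries of both strains these medians were -0.12 and -0.0018.

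The largest rise among the overlapping genes with a mean of at least 10 was that of NO03G00260, a minus-strand gene on chromosome 3 (77327 to 79158). It held 282, 162 and 198 normalised reads in HLM23, against 21.6, 47.9 and 24.2 in the WT, with no overlap between the strains. That was 6.85 times the WT mean (log2 change of 2.79 ± 0.36 SE, limma adjusted p = 0.00055). NO19G01310, a plus-strand gene on chromosome 19 (410596 to 414322), rose from a mean of 84.2 to 541 ± 153 (SD, n = 3, log2 change of 2.71 ± 0.32 SE, limma adjusted p = 0.00040). Every HLM23 library lay above every WT library for it.

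Under the same conditions the deepest fall was that of NO21G00570, a plus-strand gene on chromosome 21 (198657 to 200480). It held 22.8, 17.5 and 20.0 in HLM23 and 104, 71.9 and 109.9 in the WT, or 21.1% of the WT mean (log2 change of -2.17 ± 0.33 SE, limma adjusted p = 0.00099). Its partner across 635 shared bases stood at 559 ± 114 in HLM23, against 663 ± 110 in the WT and did not pass the test (limma adjusted p = 0.38). NO23G01550, a minus-strand gene on chromosome 23 (571815 to 574410), fell from 1320 ± 390 to 378 ± 117 (SD, n = 3, log2 change of -1.81 ± 0.26 SE, limma adjusted p = 0.00080). Its partner, with 4 shared bases, held 1583, 1568 and 1562 in HLM23 and 953, 1446 and 1157 in the WT (limma adjusted p = 0.083). These 4 genes kept their direction and their call in every alternative run at an adjusted p under 0.05.

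Calls fell on 1 or both partners about as often as in other adjacent pairs. Of the 200 pairs in which both partners were tested, 14 (7.0%) had both called, 82 (41.0%) had 1 called and 104 had none called, against 9.39% with both called and 39.0% with 1 called of all 9336 adjacent pairs. Without WT replicate 1 the number with both called was 6, and without WT replicate 3 it was 4. Without HLM23 replicate 1 it was 9. In the 82 pairs with 1 call, the sign was shared in 43 pairs (52.4%), against 54.5% of all 3643 adjacent pairs with 1 call. In 14 of the 82 the other partner reached an unadjusted p under 0.05.

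Across the 200 pairs, Spearman's rho between the fold changes of the partners was 0.042. It was -0.0078 over 2649 convergent pairs without overlap, 0.21 over 457 divergent pairs with overlap and 0.12 over all adjacent pairs, all from the same 6 libraries. By overlap length the rho was 0.16 at 50 bases or fewer (53 pairs), 0.0010 at 51 to 200 (33 pairs), -0.10 at 201 to 500 (35 pairs), -0.15 at 501 to 1000 (41 pairs) and 0.14 above 1000 bases (38 pairs), with no steady direction. The sign was shared in 102 of the 200 pairs.

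**Figure D3:**
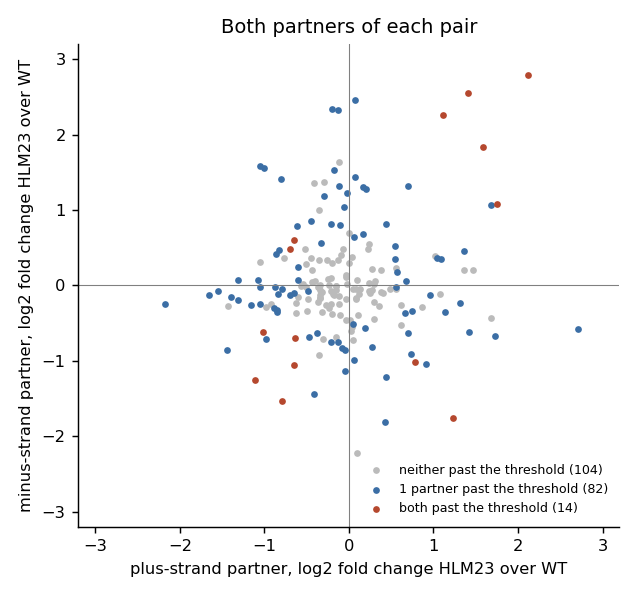
Log2 fold change (HLM23 over WT) of the plus-strand partner (x axis) and the minus-strand partner (y axis) in 200 pairs. Points spread along both axes: 82 pairs have 1 partner past the threshold and 14 have both, of which 10 lie in the quadrants of equal sign and 4 in those of opposite sign.

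Where both partners were called, they moved in the same direction in 10 of 14 pairs, with 5 pairs higher and 5 lower in HLM23, and in opposite directions in 4. Over all adjacent pairs with both called, 535 of 877 (61.0%) moved in the same direction. The count was 118 of 253 (46.6%) over convergent pairs without overlap and 34 of 44 (77.3%) over divergent pairs with overlap. The overlaps of the 14 pairs ran from 7 to 1727 bases.

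The pair that rose furthest together was that of NO03G00260 on chromosome 3, which shares 1006 bases (77327 to 78332) with its partner. The partner held 1403, 890.0 and 1941 normalised reads in HLM23, against 236, 401 and 315 in the WT, and it rose by a log2 fold change of 2.11 ± 0.28 (SE, limma adjusted p = 0.00057). On chromosome 10 (41 shared bases, 750188 to 750228) the plus-strand gene rose from 108 ± 17.7 to 326 ± 57.0 and the minus-strand gene from 27.2 ± 10.7 to 95.9 ± 26.5 (SD, n = 3). Their log2 fold changes were 1.59 ± 0.24 and 1.83 ± 0.39 (SE, limma adjusted p = 0.00094 and 0.0049), and the strains did not overlap in either gene.

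On chromosome 5 (357 shared bases, 102201 to 102557) the rise was uneven. The minus-strand gene held 1751, 1352 and 1158 in HLM23 and 147, 356 and 259 in the WT, a log2 fold change of 2.55 ± 0.29 (SE, limma adjusted p = 0.00036). The plus-strand gene held 79.3, 66.3 and 91.0 in HLM23 and 23.5, 44.1 and 23.2 in the WT, a log2 fold change of 1.41 ± 0.35 (SE, limma adjusted p = 0.012). Its call was lost without WT replicate 1 or WT replicate 3 (limma adjusted p = 0.052 and 0.053).

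Among pairs that fell together, the longest overlap was on chromosome 14 (1727 bases, 663981 to 665707). The plus-strand gene held 131, 120 and 82.0 in HLM23 and 255, 212 and 243 in the WT, and the minus-strand gene 404, 686 and 527 against 1427, 1093 and 1280. Both fell to a similar degree, by 1.11 and 1.26 in log2 units (limma adjusted p = 0.0072 and 0.0015), and neither overlapped between the strains. On chromosome 4 (192 bases, 243915 to 244106) the minus-strand gene fell from 952 ± 235 to 329 ± 84.4 (SD, n = 3, limma adjusted p = 0.0012). Its plus-strand partner fell from 470 ± 97.5 to 267 ± 34.0 (limma adjusted p = 0.017), a call lost without HLM23 replicate 1, HLM23 replicate 2, WT replicate 1 or WT replicate 3 (limma adjusted p = 0.050 to 0.082). In the balanced pair on chromosome 8, the plus-strand gene fell from 1239 ± 48.5 to 791 ± 57.6 and the minus-strand gene from 458 ± 128 to 221 ± 57.6 (SD, n = 3, limma adjusted p = 0.0086 and 0.011). Without WT replicate 3 the second did not pass (limma adjusted p = 0.066), and without the replicate 2 libraries the first did not (limma adjusted p = 0.053).

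Among the 4 pairs with calls in opposite directions, the widest split lay on chromosome 2, where the partners share 88 bases (1485249 to 1485336). The plus-strand gene held 5506, 4039 and 3900 normalised reads in HLM23, against 1688, 2336 and 1698 in the WT. The minus-strand gene held 61.9, 115 and 94.0 in HLM23 and 364, 182 and 396 in the WT. The first rose by a log2 fold change of 1.23 ± 0.18 and the second fell by 1.75 ± 0.33 on that scale (SE, limma adjusted p = 0.00094 and 0.0029), with no overlap between the strains in either.

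On chromosome 13 (440 shared bases, 265296 to 265735) the plus-strand gene rose from 2941 ± 465 to 5063 ± 766 and the minus-strand gene fell from 499 ± 40.5 to 254 ± 77.9 (SD, n = 3, limma adjusted p = 0.0056 and 0.0096). The fall was not called without WT replicate 3 (limma adjusted p = 0.052). The remaining 2 opposite pairs, both on chromosome 7, moved in the other sense and by less. At 150606 to 151025 (420 shared bases) the plus-strand gene fell by 0.65 (log2) and the minus-strand gene rose by 0.60 (limma adjusted p = 0.020 and 0.029). At 327068 to 328227 (1160 shared bases) the changes were -0.70 and 0.49 (limma adjusted p = 0.040 and 0.041). In the first of these pairs both calls were lost without HLM23 replicate 1, WT replicate 1 or WT replicate 3, and the rise also without HLM23 replicate 2 (limma adjusted p = 0.063 to 0.10). In the second the fall was lost without HLM23 replicate 3, where it came to -0.39, and without WT replicate 1, 2 or 3, and the rise was lost without any library other than WT replicate 2 (limma adjusted p = 0.051 to 0.14). With equal library totals neither rise on chromosome 7 was called (limma adjusted p = 0.094 and 0.13).

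**Figure D4:**
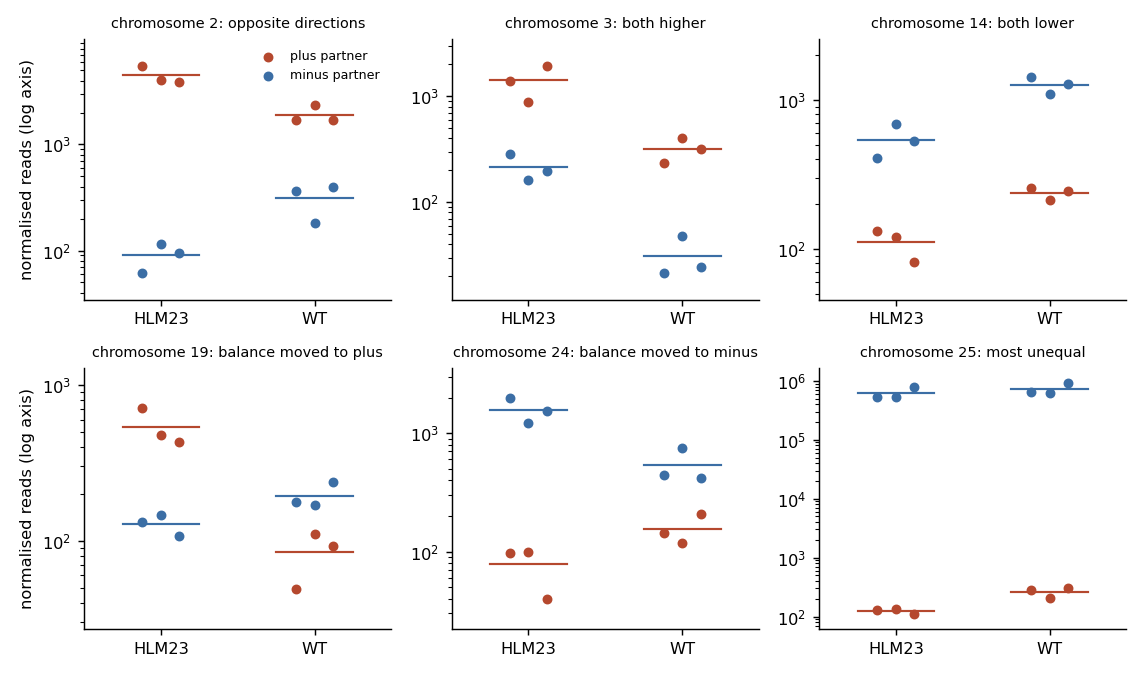
Normalised reads (log axis) of both partners in every library for 6 pairs, with 3 points and their mean as a bar for each strain. The partners move apart on chromosome 2 and together on chromosomes 3 and 14, the partners on chromosome 19 exchange their order between the strains, and on chromosome 25 the minus partner lies at 528030 or more in each library and the plus partner at 299.5 or less.

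The balance within a pair was then tested itself, as the log2 ratio of the plus-strand to the minus-strand partner in normalised reads + 1, in the same kind of fit over all adjacent pairs. At an adjusted p under 0.05 it differed in 49 of the 200 overlapping convergent pairs (24.5%), against 24.1% of all 9336 adjacent pairs tested. It moved towards the plus-strand partner in HLM23 in 22 pairs and towards the minus-strand partner in 27, and by at least 2-fold in 47 of the 49. Of the 49, 39 had 1 partner called as changed, 5 had both and 5 had none. In 43 of the 82 pairs with 1 called partner the balance itself was not called, so a call in 1 partner alone did not show that the partners differed. The count of balance calls fell to 21 without HLM23 replicate 1, 13 without WT replicate 1 and 20 without WT replicate 3.

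The furthest shift towards the plus-strand partner was that of NO19G01310 and its partner, which share 1272 bases (413051 to 414322). The partner held 132, 147 and 107 normalised reads in HLM23, against 176, 169 and 238 in the WT (limma adjusted p = 0.097). The log2 ratio was 2.42, 1.69 and 2.00 in HLM23 and -1.83, -0.60 and -1.35 in the WT. The more abundant partner by reads was thus the plus-strand gene in all HLM23 libraries and the minus-strand gene in all WT libraries (change 3.30 ± 0.35 SE, limma adjusted p = 0.0061). The split pair on chromosome 2 came next, with 5.64 ± 0.71 for HLM23 against 2.66 ± 0.88 for the WT (SD, n = 3, limma adjusted p = 0.0087). On chromosome 5 (205 shared bases, 1319950 to 1320154) the ratio went from 0.35 ± 0.25 to 2.75 ± 0.86 (SD, n = 3, limma adjusted p = 0.0086). There the plus-strand gene rose, from 894, 984 and 929.8 in the WT to 3533, 2172 and 3894 in HLM23 (limma adjusted p = 0.00041), and the minus-strand gene held 478 ± 149 against 736 ± 108 (limma adjusted p = 0.058).

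Towards the minus-strand partner, the furthest shift was on chromosome 24 (1513 shared bases, 336394 to 337906). The minus-strand gene held 1972, 1228 and 1535 in HLM23 and 441, 748 and 419.5 in the WT, and it rose (limma adjusted p = 0.00099). The plus-strand gene held 97.7, 99.4 and 40.0 in HLM23 and 145, 118 and 207 in the WT (limma adjusted p = 0.051), and the log2 ratio changed by -2.63 ± 0.51 (SE, limma adjusted p = 0.012). On chromosome 1 (695 shared bases, 749879 to 750573) the minus-strand gene rose from 105 ± 58.9 to 498 ± 173 (SD, n = 3), while the plus-strand gene held 294, 268 and 285 in the WT and 238, 265 and 271 in HLM23 (limma adjusted p = 0.0014 and 0.64). The log2 ratio in this pair was above 0 in each WT library and below 0 in each HLM23 library (change -2.45 ± 0.46 SE, limma adjusted p = 0.011).

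On chromosome 16 (92 shared bases, 110764 to 110855) the plus-strand gene fell from 535 ± 88.3 to 304 ± 31.1 (SD, n = 3, limma adjusted p = 0.011). The minus-strand gene held 26.1, 15.6 and 73.0 in HLM23 and 12.2, 4.79 and 22.2 in the WT (limma adjusted p = 0.11). The balance change of -2.21 ± 0.64 (SE, limma adjusted p = 0.038) was lost on leaving out any library other than HLM23 replicate 2 (limma adjusted p = 0.055 to 0.10), and the fall was lost without WT replicate 1 or 3 (limma adjusted p = 0.055 and 0.057). For the overlap of 4392 bases on chromosome 16 the balance was also called although neither partner was. It went from -3.02 ± 0.12 (WT) to -4.14 ± 0.59 (HLM23) (SD, n = 3, limma adjusted p = 0.042). The ratio was -3.83, -3.78 and -4.82 in HLM23 replicates 1 to 3 and -3.10, -3.08 and -2.88 in the WT. This balance was not followed through the runs that left out a library.

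**Figure D5:**
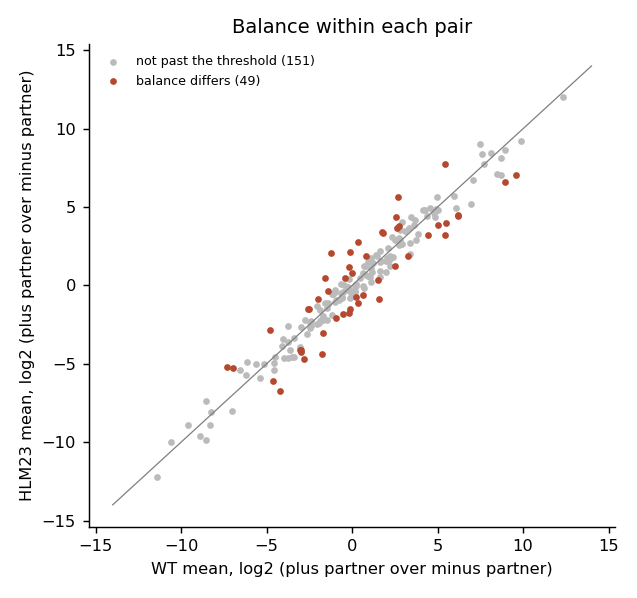
Balance within each of 200 pairs as the log2 ratio of plus-strand to minus-strand partner in normalised reads + 1, WT mean on the x axis and HLM23 mean on the y axis, with the line of equality. Ratios span most of the plotted range in both strains, and the 49 pairs whose balance differed lie on both sides of the line, 22 above and 27 below.

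The 412 overlapping convergent genes, which are 4.31% of the genes, took 7.46 to 8.31% of the normalised reads in the HLM23 libraries and 8.25 to 9.83% in the WT. Without the most abundant gene on chromosome 25 the others took 4.18 to 4.28% in HLM23 and 4.27 to 4.33% in the WT. These are shares of all normalised reads, with those of the most abundant gene still in the total.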

How the data were processed

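The deposited table holds 1 row per gene for 6 libraries. In the submitters' processing notes the tools are listed as fastp, HISAT2, featureCounts and DESeq2, without versions. Strand handling, annotation, genome build and other settings were not given in the sources used here. In the table, 6 sample columns hold a signal deposited by the authors that equals gene reads divided by 1 factor per library (whole multiples of a step within 0.0001 of a read), from which 15331673 to 18711316 reads per library follow. A value of 0 allows up to 3 reads, a limit that covers counting error only. The columns of FPKM deposited by the authors were not used. Their deposited log2 fold changes, with p-values that the authors adjusted, served as an alternative.

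Members and lists were chosen with earlier results of these data known. Genes were sorted by chromosome, start and end, which orders 11 adjacent pairs with equal starts, 2 of them members. Genes with a mean of at least 1 were fitted on log2(value + 1) by limma 3.58.1 under R 4.3.3, 3 samples a strain, mean-variance trend, Benjamini-Hochberg adjustment over all genes (or all adjacent pairs for the balance) at 0.05. A count model was not run, because an automatic test for whole reads did not accept the columns of HLM23 replicate 3 and WT replicate 3. Both fits were also run on simulated data, with changes only in genes with higher means and each gene drawn independently. That run does not cover genes with few reads or reads shared by partners, and its outcome is not given here.

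At most 2 IDs that rose and 2 that fell are printed, as the largest changes called, in genes with means of at least 10 whose strains do not overlap. Other pairs were taken by rank of overlap, joint or opposite change, balance change, WT ratio per kilobase and WT level, also with a mean of at least 10. Pairs with 1 gene inside the other and partners of named genes were described after their values were seen. Alternatives were other pseudocounts, filters, scaling, voom, a replicate block, each library left out, a stricter threshold, the authors' values and a larger minimum overlap; 2 were added after seeing the data, leaving out both replicate 2 libraries and correcting each library for gene length.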

Additional observations from a re-analysis of the deposited data

How the results depend on the processing

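Leaving out 1 library gave 1527 to 2655 genes called against 2730, 59 to 109 overlapping convergent genes against 113, 4 to 14 pairs with both partners called against 14 and 13 to 43 balance calls against 49. At an adjusted p under 0.01 these counts were 1303, 54, 5 and 8. With the replicate block they were 2635, 109, 14 and 42. Same-numbered libraries were not shown to pair, as the correlations of their deviations from the strain means were -0.069, -0.11 and 0.15. Without both replicate 2 libraries the counts were 2250, 90, 10 and 33. The other alternatives stayed within 1.5 times of each count. The authors' deposited table called 124 of the overlapping genes and both partners in 17 pairs, against 113 and 14 in the limma fit. A minimum overlap of 100 bases left 139 pairs with 79 genes called, and counting overlapping plus and minus genes that are not adjacent gave 225 pairs. The calls in the authors' table and at the larger minimum overlap were not set against shares over all genes or all adjacent pairs. They therefore do not show whether overlapping genes differed from other genes under those settings. Of 906 values for 54 of the genes and balances described, 818 kept their direction and call, 57 lost a call and 22 gained one. The other 9 changed sign, all in 4 genes not called. The log2 fold change of the plus-strand gene of the chromosome 11 pair went to -0.023 with equal library totals and ran from -0.021 to 0.26 on leaving out a library, and that of its partner went to 0.045 with the length trend removed and ran from -0.10 to 0.044. That of the minus-strand gene of the chromosome 9 pair went to 0.014 without both replicate 2 libraries and ran from -0.40 to 0.16 on leaving out 1 library (0.028 without HLM23 replicate 2, 0.064 without WT replicate 3). That of the minus-strand gene under the longest overlap, on chromosome 4, ran from -0.0066 to 0.48. The block also lost the rise of the chromosome 7 gene under 1160 shared bases (limma adjusted p = 0.062). Causes were not tested. Depth limits the genes with few reads, and the files give no reads by position within a gene.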
